A study of Mus musculus with 6 samples.

Results

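The 29 genes described here are the circadian clock and its outputs in back epidermis. They are 4 activators, 11 repressors and their relatives, 4 factors that act at D-boxes and 3 kinases and ligases. The others are 3 rhythmic outputs and 4 genes of glucocorticoid or cAMP signalling, which include the glucocorticoid receptor gene. The genes were chosen by name as known clock and clock-output genes out of 54532 genes in the table. No threshold on the measured values was used, but earlier results of these data were known when they were chosen. All 29 were found, and 27 passed the filter of a mean of at least 1 FPKM (fragments per kilobase of gene, scaled to sequencing depth) that left 12629 genes for testing. The libraries were RNA-seq of mouse back epidermis in 3 samples of each genotype. Spry1_KO mice carried floxed Spry1 together with K14-Cre-ERT2, a Cre recombinase that tamoxifen switches on and that the keratin 14 promoter drives in basal keratinocytes. Control mice were Spry1 flox/flox without Cre. Both genotypes were given tamoxifen by gavage at 0.1 mg per g of body weight, 4 times a week for 4 weeks. No group had Cre with unfloxed Spry1, so loss of Spry1 and the presence of active Cre cannot be told apart. Spry1 encodes Sprouty1, which damps signalling from growth factor receptors. The labels used here give no age, sex, strain or hour of collection. They do not say whether the 3 samples of a group were separate animals, so p-values measure the spread between samples, which may be technical. Sex-linked genes, given below, set Spry1_KO replicate 2 apart from Spry1_KO replicates 1 and 3.

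In mammalian cells the clock is a loop of transcription factors. The proteins of Arntl (BMAL1) and Clock bind E-boxes and switch on the Per, Cry and Nr1d genes, whose products then shut the activators off. NR1D1 and NR1D2 repress Arntl, ROR proteins activate it, and a further layer runs through D-boxes, where DBP, TEF and HLF activate and NFIL3 represses. Most of these transcripts rise and fall over the day, in skin as in other tissues, and in keratinocytes the clock is known for timing cell division and differentiation. With no hour of collection in the labels, a genotype effect and a difference in that hour cannot be told apart.

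Some members hold a clock motif in the short stretch before a start site, and 5 of these stretches are shown because they belong to members whose levels differed between the genotypes. Each is the 250 bases upstream of a start annotated by RefSeq in GRCm38.p6, read 5′ to 3′ on the gene's strand. Capitals mark a motif: the E-box CACGTG in Ciart, Cry1, Per1 and Tef, and the D-box TTATGTAA in Per3. The windows are chr3:95882229-95882478, minus strand, for Ciart, chr11:69098699-69098948, plus strand, for Per1, chr15:81811164-81811413, plus strand, for the downstream of the Tef starts, chr10:85185055-85185304, minus strand, for Cry1, and chr4:151044666-151044915, minus strand, for Per3.
Ciart: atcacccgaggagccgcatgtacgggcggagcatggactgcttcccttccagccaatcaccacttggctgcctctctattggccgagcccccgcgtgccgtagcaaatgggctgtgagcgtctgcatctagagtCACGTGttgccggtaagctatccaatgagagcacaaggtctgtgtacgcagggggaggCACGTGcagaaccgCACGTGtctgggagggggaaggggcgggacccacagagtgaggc
Per1: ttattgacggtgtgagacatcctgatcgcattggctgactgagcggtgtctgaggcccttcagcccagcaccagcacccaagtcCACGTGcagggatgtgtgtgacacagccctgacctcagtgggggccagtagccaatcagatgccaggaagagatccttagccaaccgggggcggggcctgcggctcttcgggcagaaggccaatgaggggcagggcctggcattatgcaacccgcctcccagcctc
Tef: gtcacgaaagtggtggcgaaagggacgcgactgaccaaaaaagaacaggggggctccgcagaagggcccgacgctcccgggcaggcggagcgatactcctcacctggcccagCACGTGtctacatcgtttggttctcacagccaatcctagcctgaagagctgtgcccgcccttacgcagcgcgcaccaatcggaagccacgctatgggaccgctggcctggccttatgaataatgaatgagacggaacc
Cry1: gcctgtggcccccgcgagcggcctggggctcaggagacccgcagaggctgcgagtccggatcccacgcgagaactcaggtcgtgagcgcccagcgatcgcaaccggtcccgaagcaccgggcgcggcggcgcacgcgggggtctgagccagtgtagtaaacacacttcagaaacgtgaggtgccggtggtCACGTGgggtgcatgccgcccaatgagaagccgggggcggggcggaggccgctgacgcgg
Per3: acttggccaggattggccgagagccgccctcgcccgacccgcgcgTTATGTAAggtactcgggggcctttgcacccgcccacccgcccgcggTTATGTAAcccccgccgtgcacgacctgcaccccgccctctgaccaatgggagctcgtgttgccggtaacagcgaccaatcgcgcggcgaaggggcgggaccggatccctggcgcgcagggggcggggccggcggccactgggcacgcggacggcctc

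Matched by symbol, 23 of the 29 members were in the RefSeq promoter table. Per2, Bhlhe40, Csnk1d, Wee1, Sik1 and Nr3c1 were not. On both strands, the E-box was present before a start of 6 of the 23 members (Bhlhe41, Ciart, Cry1, Fkbp5, Per1 and Tef), and before a start of 6.86% of 27025 genes in the table. Ciart held 3 copies, at 44, 58 and 116 bases upstream of its start. The D-box, searched as TTATGTAA or TTACGTAA, was found in Per3 and Timeless and in 1.10% of all genes. Per3 held 2 copies, at 158 and 205 bases. A cAMP response element, TGACGTCA, was found in Hlf at 9 bases and in 1.77% of all genes. The RORE, which ROR and NR1D proteins bind, was searched in a strict form. It and the glucocorticoid response element GNACANNNTGTNC were in 0 of 23 member windows, and in 0.396% and 0.440% of all genes. Sites past a start, further upstream or in looser forms were not searched, so members may hold such sites. No site overlapped a site of another motif. These matches describe the letters in the windows and not binding. Of the 6 genes with an E-box, Ciart, Per1 and Tef fell in the knockouts, Cry1 rose, and Bhlhe41 and Fkbp5 did not pass the test.

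Reads recovered from the FPKM steps numbered 18670248 to 21024715 in the Spry1_KO libraries and 18383323 to 18949500 in the Control libraries. Spry1 read 1.06, 1.49 and 1.28 FPKM in the knockouts, against 25.8, 28.2 and 34.4 FPKM in the controls, in the direction its label gives. Genotype separated the libraries along the first principal component, with 82.7% of the variance, and Control replicate 3 stood apart from the other controls along the second, with 8.48%. Spry1_KO replicate 2 carried 15.9 FPKM of the Y-linked gene Ddx3y and 1.31 FPKM of Xist. In the other 5 libraries Ddx3y was at most 0.115 FPKM and Xist at least 20.0 FPKM. By these genes Spry1_KO replicate 2 read as male and the other libraries, with every control, as female. It was thus from another animal than Spry1_KO replicates 1 and 3. Where leaving out Control replicate 3 or Spry1_KO replicate 2 changed a call or a direction, the value without it is given. The 10 most abundant genes took 18.6% to 22.2% of the FPKM sum in the knockouts and 12.6% to 16.0% in the controls. Scaling by that sum, as TPM (each library brought to the same sum), moved the median log2 fold change of all tested genes to -0.22, against 0.03 with the FPKM as deposited.

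Most clock members that passed the filter fell in the knockouts. By limma (log2 of FPKM + 1, Benjamini-Hochberg adjusted p under 0.05), 21 of the 27 tested members were called, against 54.0% of all tested genes. Of these 15 fell, against 24.4% of all genes, and 6 rose, against 29.6%. A fall of at least 2-fold on this scale was called for 14 members, beside 8.0% of all genes, and a rise of that size for Nfil3 and Bhlhe40, beside 8.11%. All 3 knockouts lay below all 3 controls for 16 members (29.4% of all genes) and above them for 7 (34.9%), so that 23 of 27 did not overlap, beside 64.2% of all genes. The other 4 tested members, Bhlhe41, Timeless, Nampt and Fkbp5, overlapped. The median log2 fold change of the tested members was -1.13, beside 0.03 for all tested genes. The members were chosen with earlier results of these data known, so these counts describe them and do not test the set. The count of falls was 14 or 15 under each of the 14 alternative settings. With no filter the 15 falls included Fbxl21, which the filter otherwise removed, and did not include Sik1. The count of rises was 2 under TPM scaling, where the split of all called genes was 2055 higher and 4470 lower, beside 3736 higher and 3079 lower as deposited. It was 3 without Spry1_KO replicate 1 or replicate 3, and 4 without Control replicate 1, with the replicate block and by limma-voom on recovered reads. The genes behind these lost rises are named below. Per3 averaged 0.723 FPKM in the knockouts and passed the filter through its control level.

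**Figure D1:**
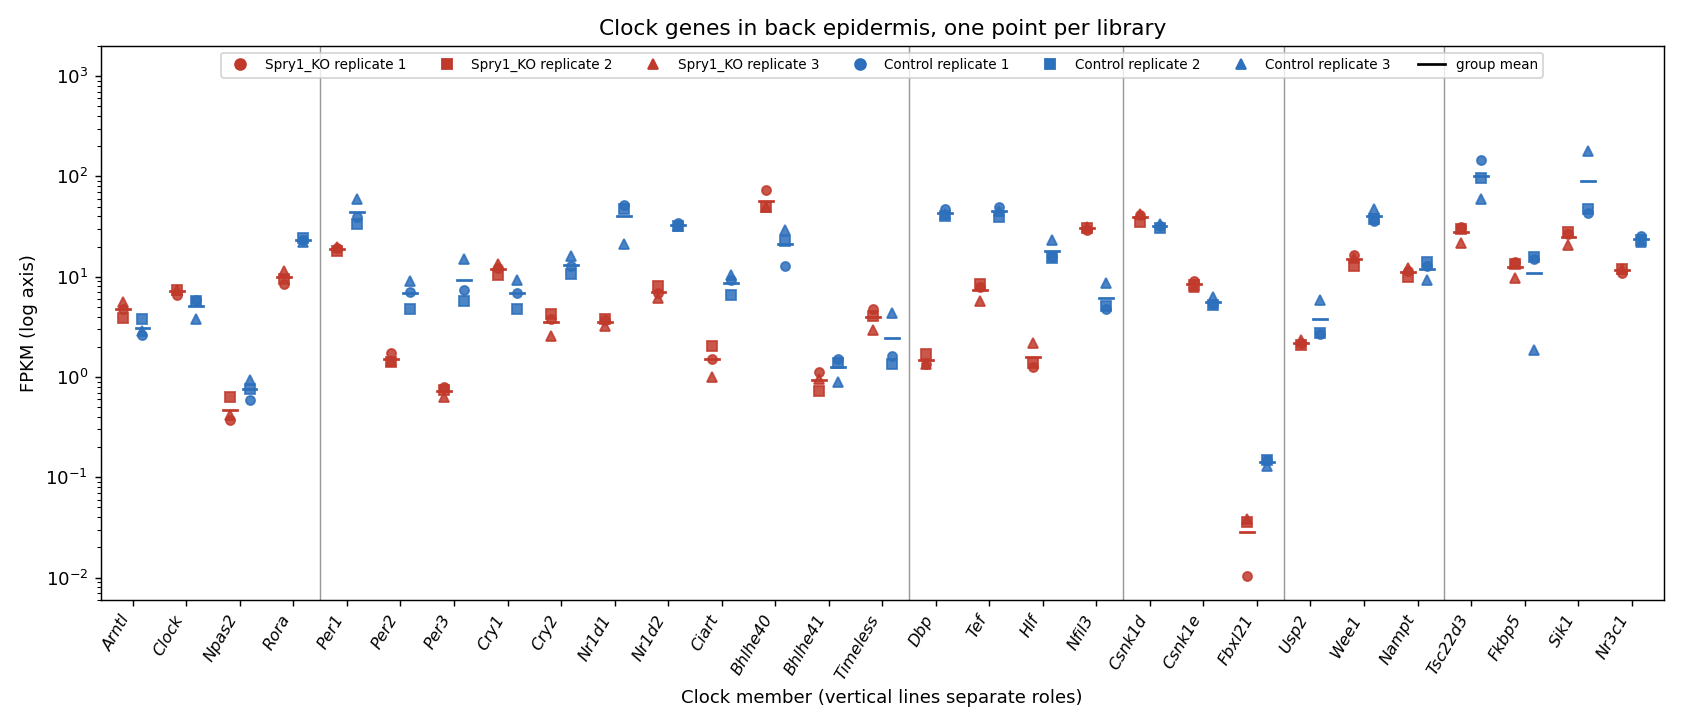
Level of each of the 29 clock members in FPKM (log axis), with 1 point per library, Spry1_KO in red left of Control in blue, horizontal bars for the group means, and vertical lines between the roles. Dbp, Hlf, Per3 and Nr1d1 show wide gaps below the controls, Nfil3 a wide gap above them, and Control replicate 3 (blue triangle) lies away from the other controls for Sik1, Fkbp5, Nr1d1 and Timeless.

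Among the D-box factors, the 3 activators fell and the repressor rose. Dbp, the activator of D-box genes whose transcript is among the most strongly rhythmic in many mouse tissues, read 1.35, 1.71 and 1.34 FPKM in the knockouts, against 47.4, 39.8 and 42.1 FPKM in the controls. The mean was 29.4 times lower in the knockouts. Its log2 fold change of -4.16 ± 0.10 (SE; limma adjusted p of 3.03e-06) was the 15th largest fall among 12629 genes, and larger than that of the deleted Spry1 at -3.74. Behind these values stood 81, 89 and 66 recovered reads in the knockouts and 2586, 2181 and 2458 in the controls, so the knockout level rests on few reads. Limma-voom on the recovered reads, which uses a smaller offset than 1 FPKM, gave -5.01. Dbp lies at chr7:45705088-45710203 on the plus strand (GRCm38), and 539 bases, 18.0% of its exonic length, overlap Sphk2 on the other strand. Sphk2, a sphingosine kinase, read 15.9, 16.6 and 16.9 FPKM in the knockouts, against 27.3, 31.6 and 32.7 FPKM in the controls. Whether the libraries kept strand is not stated, and reads from the shared bases cannot be told apart.

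The sister activators of Dbp fell as well. Tef read 7.94, 8.42 and 5.79 FPKM in the knockouts and 49.6, 39.6 and 44.9 FPKM in the controls, a log2 fold change of -2.46 ± 0.15 (limma adjusted p of 4.83e-05). Hlf read 1.24, 1.36 and 2.19 FPKM in the knockouts and 15.6, 15.4 and 23.4 FPKM in the controls, a log2 fold change of -2.87 ± 0.20 (limma adjusted p of 8.55e-05). Neither gene's groups came near each other. Nfil3, whose protein represses through the same D-box sequence, moved the other way. Its levels were 29.4, 30.8 and 31.4 FPKM in the knockouts, against 4.71, 5.10 and 8.58 FPKM in the controls. The log2 fold change was 2.18 ± 0.19 (limma adjusted p of 0.000189), and the 3 knockouts lay close together. All 4 D-box factors kept their direction and call under every alternative setting run.

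Among the repressors, both nuclear receptors that silence Arntl fell. Nr1d1 (REV-ERBα) read 3.67, 3.78 and 3.20 FPKM in the knockouts, against 51.7, 47.3 and 21.1 FPKM in the controls. Even the lowest control, replicate 3, was several times above every knockout. The log2 fold change was -3.08 ± 0.32 (limma adjusted p of 0.000335), and -3.47 without that library. Of its exonic length, 263 bases (8.55%) overlap Thra on the other strand, a thyroid hormone receptor gene that read 10.3, 10.4 and 9.47 FPKM in the knockouts, against 18.4, 16.4 and 20.0 FPKM in the controls. Nr1d2 (REV-ERBβ), the partner of Nr1d1, was more even within each group. It read 6.94, 7.99 and 6.07 FPKM in the knockouts and 34.7, 31.8 and 32.3 FPKM in the controls, a log2 fold change of -2.09 ± 0.11 (limma adjusted p of 2.64e-05).

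All 3 Per genes, which encode the proteins that block BMAL1 and CLOCK, fell by different amounts. Per3 read 0.792, 0.744 and 0.633 FPKM in the knockouts, against 7.32, 5.74 and 15.0 FPKM in the controls (log2 fold change -2.49 ± 0.30, limma adjusted p of 0.000647). Per2 read 1.73, 1.42 and 1.43 FPKM in the knockouts, against 7.02, 4.73 and 9.02 FPKM in the controls (-1.61 ± 0.20, limma adjusted p of 0.000734). Per1, the most abundant of the 3, read 19.4, 18.2 and 19.6 FPKM in the knockouts, against 39.5, 33.7 and 59.3 FPKM in the controls (-1.13 ± 0.19, limma adjusted p of 0.00289). For each of the 3, the groups were clearly apart and Control replicate 3 was the highest control. Without it the falls were -2.12 for Per3 and -0.90 for Per1, both still called.

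The cryptochromes, partners of the PER proteins in repression, split. Cry2 fell, with 3.78, 4.26 and 2.59 FPKM in the knockouts, against 12.8, 10.7 and 16.0 FPKM in the controls (log2 fold change -1.64 ± 0.19, limma adjusted p of 0.000512). Cry1 rose, with 12.3, 10.3 and 13.3 FPKM in the knockouts, against 6.80, 4.797 and 9.17 FPKM in the controls (0.74 ± 0.21, limma adjusted p of 0.0208). The gap between the lowest knockout and the highest control was narrow for Cry1. The Cry1 call was lost with TPM scaling (limma adjusted p of 0.12), and when leaving out Spry1_KO replicate 1 (0.0633), Spry1_KO replicate 3 (0.0719) or Control replicate 1 (0.0535).

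The remaining repressors went in both directions. Ciart (CHRONO), which binds BMAL1 and represses it, read 1.52, 2.01 and 0.995 FPKM in the knockouts, against 9.29, 6.60 and 10.3 FPKM in the controls (log2 fold change -1.96 ± 0.20, limma adjusted p of 0.00034). Bhlhe40 (DEC1), which competes for E-boxes, rose, with 73.2, 49.4 and 49.6 FPKM in the knockouts, against 12.6, 22.5 and 28.97 FPKM in the controls (1.43 ± 0.30, limma adjusted p of 0.00666). Its controls spread more than 2-fold, with replicate 1 the lowest, and the rise was 1.11 without that library. Bhlhe41 (DEC2), its paralogue, had 1.13, 0.720 and 0.959 FPKM in the knockouts and 1.53, 1.37 and 0.893 FPKM in the controls, which overlapped (limma adjusted p of 0.286). Timeless, whose mammalian product acts mainly in DNA replication, had 4.76, 4.09 and 2.92 FPKM in the knockouts, against 1.61, 1.35 and 4.31 FPKM in the controls. With Control replicate 3 inside the knockout range it was not called (log2 fold change 0.61, limma adjusted p of 0.149). Without that library it was higher in the knockouts by 0.97 (limma adjusted p of 0.00511), and array weights also gave a call.

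**Figure D2:**
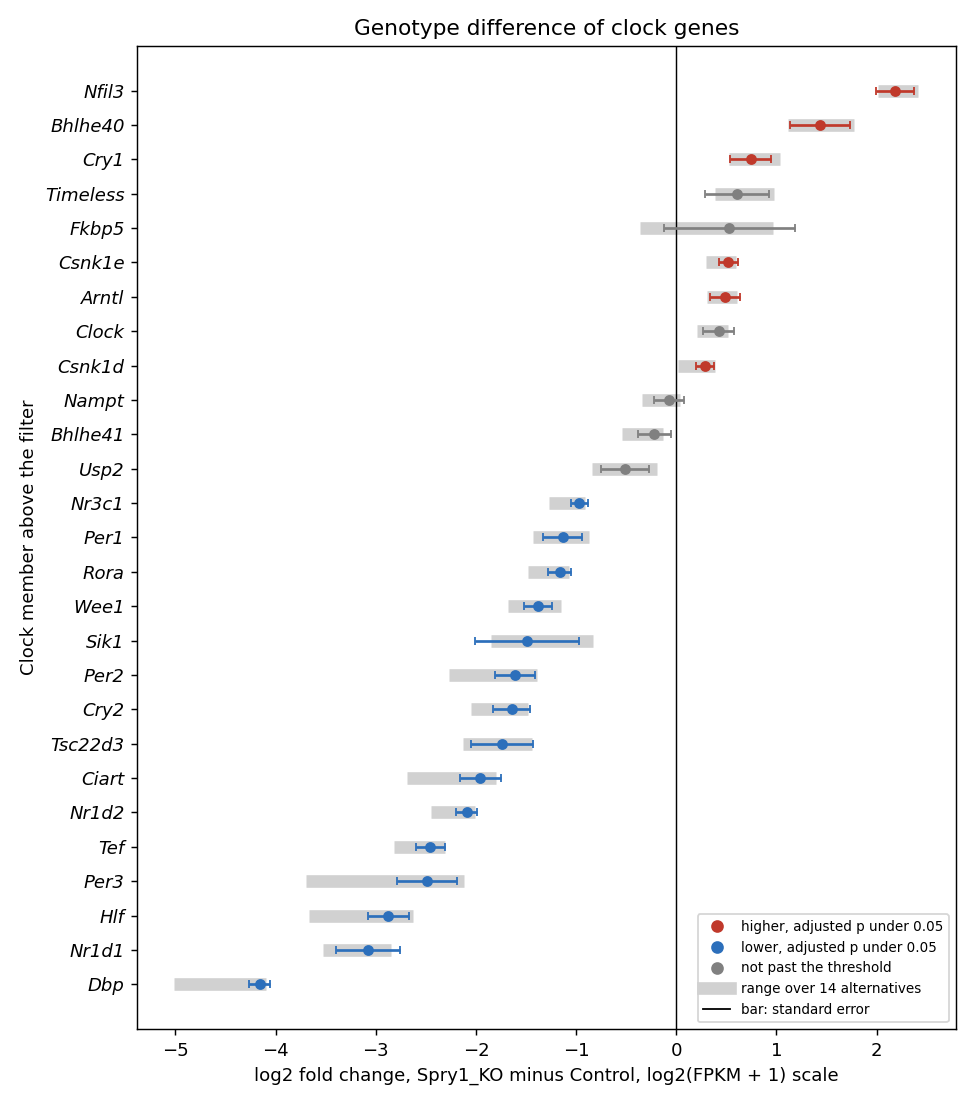
Log2 fold change of each tested clock member, Spry1_KO over Control, on the log2(FPKM + 1) scale, ordered by value, with thin bars of 1 SE, grey bands for the range over the 14 alternatives, and colour for the limma call. The points run from -4.16 for Dbp to 2.18 for Nfil3, and 15 called points lie below 0 and 6 above it.

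Among the activators, Arntl rose and Rora fell. Arntl, which encodes BMAL1, had 4.74, 3.86 and 5.64 FPKM in the knockouts, against 2.62, 3.76 and 2.91 FPKM in the controls. The groups did not overlap, but Spry1_KO replicate 2 lay just above Control replicate 2. The log2 fold change was 0.49 ± 0.15 (limma adjusted p of 0.0334). The call was lost under 8 alternatives, which were no filter (limma adjusted p of 0.0744), TPM scaling (0.188), the replicate block (0.0786), limma-voom on recovered reads (0.0525) and leaving out Spry1_KO replicate 1 (0.0869), Spry1_KO replicate 3 (0.104), Control replicate 1 (0.101) or Control replicate 3 (0.0681). Clock, the partner of BMAL1, was higher in every knockout, with 6.59, 7.43 and 7.35 FPKM, against 5.91, 5.73 and 3.77 FPKM in the controls, and missed the threshold (0.42 ± 0.15, limma adjusted p of 0.0534). It passed with array weights (0.0468) and without Control replicate 1 (0.0466) or Control replicate 3 (0.0402), where the difference was 0.25. Npas2, which can stand in for CLOCK, was below the filter, with 0.374, 0.625 and 0.419 FPKM in the knockouts and 0.584, 0.753 and 0.932 FPKM in the controls. Rora, the receptor that activates Arntl, fell, with 8.41, 9.58 and 11.5 FPKM in the knockouts, against 23.0, 24.2 and 22.0 FPKM in the controls (-1.16 ± 0.12, limma adjusted p of 0.000296).

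The kinases that phosphorylate PER proteins were slightly higher. Csnk1e, casein kinase 1 epsilon, rose, with 9.09, 8.35 and 7.97 FPKM in the knockouts and 5.35, 5.26 and 6.22 FPKM in the controls (log2 fold change 0.52 ± 0.09, limma adjusted p of 0.00346). Its difference was 0.30 with TPM scaling, where the call was lost (0.149). Csnk1d, casein kinase 1 delta, had 40.8, 35.5 and 42.0 FPKM in the knockouts and 32.2, 30.7 and 33.4 FPKM in the controls. Its rise of 0.29 ± 0.09 (limma adjusted p of 0.0332) was lost under 8 alternatives: median-ratio scaling (0.0597), TPM scaling (0.933), the replicate block (0.0559), limma-voom on recovered reads (0.216) and leaving out replicate 1 or 3 of Spry1_KO or replicate 1 or 2 of Control. Fbxl21, a ligase subunit that targets cryptochromes, was at the limit of detection, with 1, 3 and 3 recovered reads in the knockouts and 13, 13 and 12 in the controls. With no filter Fbxl21 was called lower on these few reads (-0.15, limma adjusted p of 0.00976).

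Of the rhythmic outputs, Wee1 fell. It encodes the kinase that holds CDK1 inactive before mitosis, and read 16.5, 12.7 and 15.5 FPKM in the knockouts, against 36.3, 37.3 and 47.5 FPKM in the controls (log2 fold change -1.38 ± 0.14, limma adjusted p of 0.00032). Cell-cycle genes were measured beside it and beside Timeless: 11 of 12 rose, beside 29.6% of all tested genes, with a median log2 fold change of 2.02. Among them Plk1, a mitotic kinase, read 21.5, 23.3 and 14.7 FPKM in the knockouts, against 2.69, 2.29 and 2.78 FPKM in the controls. Cdc20, an activator of the anaphase-promoting complex, rose by 2.44, Ccnb2 by 2.32 and Ccnb1, also a mitotic cyclin, by 2.01. The exception was Mcm2, of the replicative helicase, with 0.51 (limma adjusted p of 0.0635). Whether this has a part in the Wee1 or Timeless values was not tested. Usp2, a deubiquitinase with a rhythmic transcript, had 2.17, 2.08 and 2.33 FPKM in the knockouts, below the 2.68, 2.77 and 5.80 FPKM of the controls, and was not called (-0.51, limma adjusted p of 0.11). Without Control replicate 3, the library at 5.80 FPKM, the difference was -0.22. Nampt, the rate-limiting enzyme of NAD salvage, overlapped, with 11.4, 10.02 and 12.2 FPKM in the knockouts and 12.6, 13.9 and 9.28 FPKM in the controls (-0.07 ± 0.15, limma adjusted p of 0.718).

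Of the 4 genes of glucocorticoid and cAMP signalling, 3 fell, of which Nr3c1 encodes a receptor and is not an output. Control replicate 3 stood apart from the other controls for several of the 4. Nr3c1, the glucocorticoid receptor gene, was even within groups and fell, with 10.8, 11.8 and 12.1 FPKM in the knockouts, against 25.5, 23.3 and 22.0 FPKM in the controls (log2 fold change -0.97 ± 0.09, limma adjusted p of 0.000197). Tsc22d3 (GILZ), a direct target of that receptor, fell, with 31.5, 30.1 and 21.9 FPKM in the knockouts, against 144, 97.1 and 59.8 FPKM in the controls (-1.74 ± 0.31, limma adjusted p of 0.0034). Its controls spread more than 2-fold yet all lay above the knockouts. Fkbp5, another target and a chaperone partner of the receptor, had 14.1, 13.3 and 9.78 FPKM in the knockouts and 15.0, 15.8 and 1.86 FPKM in the controls. It was not called (0.53 ± 0.66, limma adjusted p of 0.523), and the sign turned to -0.31 without Control replicate 3 (limma adjusted p of 0.134), the library at 1.86 FPKM. Sik1, a kinase induced by cAMP, had 26.8, 28.2 and 20.5 FPKM in the knockouts, against 42.9, 47.3 and 181 FPKM in the controls. Its fall of -1.49 ± 0.52 (limma adjusted p of 0.0469) was -0.83 without Control replicate 3, where it was still called (0.00453). The Sik1 call was lost without Spry1_KO replicate 1 (0.0974), replicate 2 (0.0869) or replicate 3 (0.131), with no filter (0.102) and under the replicate block (0.0718).

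Control replicate 3 differed by at least 1.5-fold (FPKM + 1) from both other controls in 8 of the 27 tested members, or 29.6%, against 7.55% of all tested genes. In it Nfil3, Per3, Sik1, Timeless and Usp2 were high, and Nr1d1, Tsc22d3 and Fkbp5 were low. Control replicate 1 differed in this way in 1 member, Bhlhe40, which was low, beside 190 of 12629 genes. For Control replicate 2 (1.90% of all genes) and for Spry1_KO replicates 1, 2 and 3 (1.57%, 2.29% and 2.25%) the count was 0 of 27. Fos, an immediate early gene chosen after its values were seen, had 592, 395 and 89.9 FPKM in the knockouts and 726, 920.4 and 1655 FPKM in the controls, where replicate 3 was highest. Nr4a1, another such gene chosen then, had 48.4, 42.0 and 37.1 FPKM in the knockouts and 20.5, 42.4 and 299 FPKM in the controls, again highest in replicate 3. Their part in the values of the clock members was not tested.

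**Figure D3:**
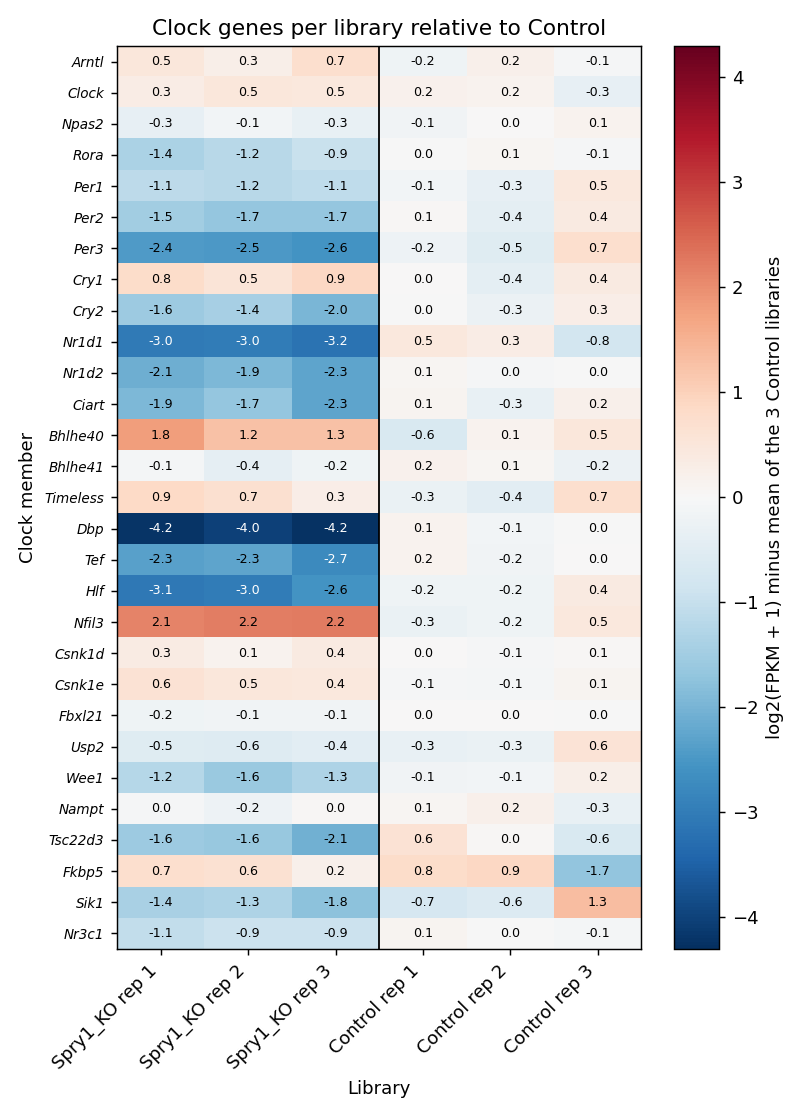
Log2(FPKM + 1) of each clock member in each library, minus the mean of the 3 Control libraries, in a red and blue scale with the Spry1_KO columns left of the Control columns. The knockout columns are alike, with -4.23 to -4.02 for Dbp in all 3, whereas Control replicate 3 departs from its group for Sik1 (1.32) and Fkbp5 (-1.68).

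Ratios between 2 members within a library do not depend on scaling between libraries. These pairs were chosen after their values were seen, and with 3 libraries against 3 the exact two-sided permutation test cannot go below p = 0.1, the value each pair gave. The ratio of Nfil3 to Dbp, the repressor over the activator at the same motif, was 21.8, 18.0 and 23.5 in the knockouts, against 0.0994, 0.128 and 0.204 in the controls. Nfil3 thus exceeded Dbp per kilobase in every knockout and in no control. Arntl over Nr1d1, an activator over its repressor, was 1.29, 1.02 and 1.76 in the knockouts, against 0.0506, 0.0794 and 0.138 in the controls. Cry1 over Cry2 was 3.26, 2.41 and 5.16 in the knockouts, against 0.531, 0.448 and 0.572 in the controls. The order of the cryptochromes was thus Cry1 above Cry2 in each knockout and below it in each control. Per1 over Per3 was 24.4, 24.5 and 31.0 in the knockouts and 5.40, 5.87 and 3.96 in the controls. Per1 over Per2 was 11.2, 12.9 and 13.7 in the knockouts and 5.63, 7.12 and 6.57 in the controls. Bhlhe40 over its paralogue Bhlhe41 was 64.6, 68.6 and 51.7 in the knockouts and 8.28, 16.4 and 32.4 in the controls. Tsc22d3 over Fkbp5 was 2.23, 2.26 and 2.24 in the knockouts, a narrow range, and 9.60, 6.13 and 32.2 in the controls.

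**Figure D4:**
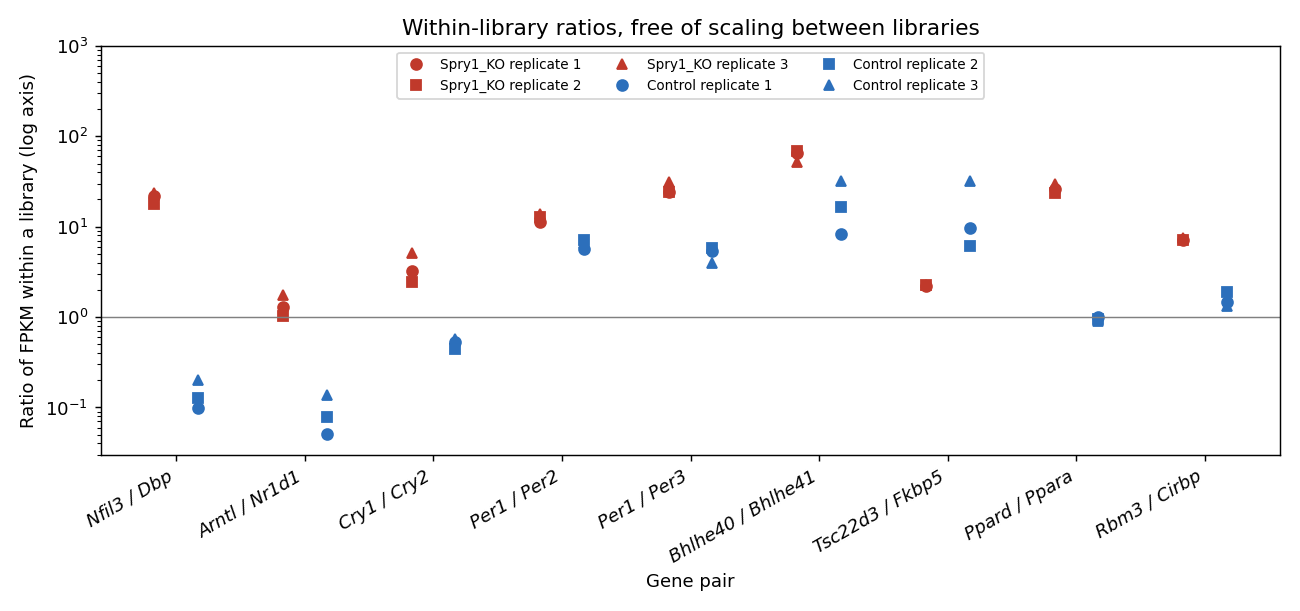
Ratio of the FPKM of 2 genes within each library (log axis, horizontal line at 1), with 1 point per library, Spry1_KO in red left of Control in blue. The Nfil3 to Dbp ratio lies between 18.0 and 23.5 in the knockouts and between 0.0994 and 0.204 in the controls. Spry1_KO and Control points do not overlap for any pair plotted, and the pairs were chosen after their values were seen.

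Of 27 other regulators of the clock 24 were tested, and 7 rose and 5 fell, with a median log2 fold change of 0.03. The 50% called lay near the 54.0% of all tested genes. Ppara, a nuclear receptor of fatty acid metabolism that activates Arntl, read 0.480, 0.616 and 0.460 FPKM in the knockouts, against 3.73, 4.42 and 4.68 FPKM in the controls (-1.79 ± 0.12, limma adjusted p of 6.71e-05), and passed the filter through its control level. Its relative Ppard read 12.7, 14.5 and 13.8 FPKM in the knockouts, against 3.72, 4.17 and 4.27 FPKM in the controls (1.53 ± 0.09, limma adjusted p of 4.17e-05). The pair was near equal in controls, with Ppard over Ppara at 0.998, 0.944 and 0.913, against 26.4, 23.5 and 30.05 in the knockouts. Csnk1a1, casein kinase 1 alpha, rose by 0.67 on the log2 scale.

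Of 16 transcripts known to cycle in many tissues 12 were tested, and 4 rose and 3 fell, with a median of -0.04. The 58.3% called lay near the 54.0% of all tested genes. Klf9, a Krüppel-like factor that both the clock and glucocorticoid induce, read 7.87, 9.40 and 7.02 FPKM in the knockouts, against 36.8, 37.0 and 39.9 FPKM in the controls (log2 fold change -2.10 ± 0.11, limma adjusted p of 2.85e-05). Ypel2 fell by 1.12, Dtx4, a ubiquitin ligase, fell by 1.09, and Tfrc, the transferrin receptor, rose by 0.99. Dtx4 averaged 0.924 FPKM in the knockouts and passed the filter through its control level. Its value in Control replicate 3, 1.74 FPKM, lay below the 4.43 and 3.60 FPKM of the other controls. Under TPM scaling 4 of the 12 tested rhythmic transcripts were called in place of 7. Body temperature also sets clocks, and 7 of 10 temperature-responsive transcripts rose while 2 fell, beside 29.6% and 24.4% of all tested genes. The risers with the lowest p were the heat shock and stress chaperones Hspa8 (1.37), Hspd1 (1.11) and Hspa5 (1.11), and Rbm3 (1.26), which cold induces. The other cold-induced RNA-binding gene, Cirbp, named after its values were seen, fell by 0.92. The remaining heat shock genes were also named after their values were seen. Hspa1b (0.40), Hsph1 (0.41) and Hsp90aa1 (0.85) rose, Hspa1a fell (-0.54) and Dnajb1 was not called (-0.31). Hspa1b averaged 140 FPKM in the knockouts and 105 FPKM in the controls, and Hspa1a 21.6 and 31.5 FPKM. Under TPM scaling 5 of the 10 rose and 3 fell. Rbm3 over Cirbp was 7.05, 7.06 and 7.49 in the knockouts, against 1.46, 1.88 and 1.34 in the controls.

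Of 18 genes that glucocorticoid induces 15 were tested, and 5 fell and 4 rose, with a median of -0.38. The 60% called lay near the 54.0% of all tested genes. Beside Klf9, Pdk4, a kinase that restrains pyruvate use, fell, with 0.709, 1.03 and 0.415 FPKM in the knockouts, against 2.38, 2.96 and 3.83 FPKM in the controls. Pdk4 passed the filter through its control level. Map3k6 rose by 1.44 and Cebpd, a transcription factor of acute responses, by 1.10. Dusp1, a phosphatase of MAP kinases chosen after its values were seen, fell, with 165, 90.2 and 42.1 FPKM in the knockouts, against 357, 427 and 462 FPKM in the controls. Of 9 genes for glucocorticoid metabolism and receptor chaperones, 3 were tested and 2 rose, the chaperones Ptges3 (0.74) and Hsp90ab1 (0.47). The call for Hsp90ab1 was lost under TPM scaling. Of 12 cAMP and CREB genes, 11 were tested and 1 fell, the CREB coactivator Crtc1 (-0.50), while 5 were called without Control replicate 3. Of 9 NAD salvage genes, 7 were tested and 1 fell, Nmrk1 (-0.47), a nicotinamide riboside kinase, and 2 were called without Control replicate 3. Called genes made up 9.09% of the tested cAMP and CREB genes and 14.3% of the NAD salvage genes, beside 54.0% of all tested genes. For the glucocorticoid metabolism list the share was 66.7%, of 3 tested.

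Markers of cell types also differed between the groups, and in bulk tissue fewer cells of a type and less RNA per cell cannot be told apart. The calls below stand beside 24.4% of all tested genes called lower and 29.6% called higher. Keratinocyte markers, which check the labelled tissue, summed to 24326 to 30476 FPKM in the knockouts and 15862 to 17099.9 FPKM in the controls. Of the 8, Krt5, Krt14 and Krt1 rose, Krt10 and Trp63 fell and 3 were not called, with a median log2 fold change of -0.13. Markers of Langerhans cells and macrophages summed to 201 to 313 FPKM in the knockouts, against 633 to 1032 FPKM in the controls, and 4 of 5 fell. T cell markers summed to 13.9 to 25.3 FPKM in the knockouts, against 38.3 to 53.7 FPKM in the controls, and of the 5, Cd3e, Cd3g and Trdc fell, Trac rose by 1.24 and Cd2 was not called. Skeletal muscle markers summed to 1.08 to 2.31 FPKM in the knockouts, against 13.8 to 56.9 FPKM in the controls, and the markers tested passed the filter only through their control levels. Melanocyte markers summed to 207 to 211 FPKM in the knockouts, against 7.93 to 11.0 FPKM in the controls, and 5 of 5 rose, of which Mlana and Tyr passed the filter through their knockout levels. The neutrophil list summed to 417 to 1128 FPKM in the knockouts, against 4.00 to 9.55 FPKM in the controls. Its S100a8, S100a9 and Cxcr2 rose, while Ly6g and Mpo were below 1 FPKM in every library. The knockout sum rests on S100a8 and S100a9, which averaged 301 and 385 FPKM there, against 3.53 FPKM for Cxcr2. Which cells made these transcripts was not tested. Of the 3 that rose, Cxcr2 passed the filter through its knockout levels. Fibroblast markers summed to 1.995 to 6.81 FPKM in the knockouts and 7.59 to 16.4 FPKM in the controls, and those tested likewise passed the filter through the controls. Hair follicle markers ran from 25.1 to 46.7 FPKM in the knockouts and 22.4 to 42.8 FPKM in the controls, and sebaceous markers from 175 to 258 FPKM in the knockouts and 100.5 to 272 FPKM in the controls. Adipocyte markers were at most 3.33 FPKM in the knockouts and 2.15 FPKM in the controls, and endothelial markers at most 1.83 FPKM in the knockouts and 4.46 FPKM in the controls. The part of these shifts in the levels of the clock members was not tested.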

How the data were processed

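RNA-seq of back epidermis was measured in 6 libraries, 3 of each genotype, grouped and numbered by their titles. FPKM values of 54532 genes were deposited by the authors as 1 table. The submitters' processing notes name HISAT2 2.0.5, featureCounts 1.5.0-p3 and the builds GRCm38 and mm10. No source used here gives the annotation, the strandedness or the formula behind the FPKM. FPKM depends on gene length and on the total used for scaling, which a few abundant genes can move.

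Genotypes were compared by limma-trend (limma 3.58.1, R 4.3.3; two-sided) on log2(FPKM + 1), without covariates, in the 12629 genes whose mean reached 1 FPKM, and p-values were adjusted over all of them by Benjamini-Hochberg, with a threshold of 0.05. Fold changes on this scale understate the change of low genes. FPKM multiplied by GENCODE M21 exon lengths gave whole reads, within 0.1 reads, for 97.0% to 97.3% of values. No pair of replicates agreed within sampling noise, by a chi-square of recovered reads per gene. Members and lists were chosen with earlier results of these data known. Named genes were all members and, of each other list, up to 4 called genes with the lowest p. A gene selected in this way is not reported here. Any other gene named in the text was chosen after its values were seen. The alternative settings were no filter, a pseudocount of 0.1, median-ratio and TPM scaling, array weights, a replicate block and leaving out each library. A fit without both Control replicate 3 and Spry1_KO replicate 2, and limma-voom on recovered reads, were added after seeing the data. The gene test was tested on simulated data. Promoters were the 250 bases before RefSeq starts (GRCm38.p6). Python 3.11.15 and matplotlib 3.10.9 drew the figures.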

Additional observations from a re-analysis of the deposited data

How the results depend on the processing

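Of the 27 tested clock members, 18 kept their direction and their side of the threshold under all 14 alternatives, and so did 676 of 714 values over 51 followed genes, while 27 lost a call, 6 gained one and 5 reversed. Called members numbered 21, and 17 to 23 under the alternatives. The reversed values belong to members that were not called: Nampt at -0.07 became 0.0012 without Spry1_KO replicate 2 and 0.040 without Control replicate 2 (-0.23 to 0.040 when each library was left out), and Fkbp5 at 0.53 became -0.068 with array weights, -0.31 without Control replicate 3 and -0.37 without both libraries (-0.31 to 0.97 when each was left out). Counts of 1 to 7 called genes moved in the smaller lists. Under TPM scaling 4 rhythmic transcripts (7 as deposited), 1 glucocorticoid metabolism gene (2) and 3 cAMP and CREB genes (1) were called. With no filter these were 5 glucocorticoid metabolism and 2 cAMP genes. Array weights gave 5 cAMP and 2 NAD salvage genes, limma-voom gave 2 cAMP genes, and leaving out both libraries gave 3. Leaving out each library gave 1 to 5 cAMP genes, 1 to 2 NAD salvage genes and 2 to 3 glucocorticoid metabolism genes. The causes were not tested beyond the settings themselves. The replicate numbers showed no sign of pairing the libraries: deviations from the group means of same-numbered libraries correlated at -0.098, -0.11 and -0.12. No library correlated best with its own number. With 3 libraries per group, these correlations cannot exclude a batch shared by number. With the replicate block 5834 genes were called in place of 6815, and 2 cAMP genes in place of 1. Few reads limit Fbxl21, Npas2 and the knockout levels of Dbp and Ciart.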
